A study of Mus musculus with 18 samples.

Results

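The cytosolic ribosomal protein genes were taken by symbol from a gene-level table of CPM values (read counts scaled to the size of each library) of mouse pancreatic ductal adenocarcinoma metastasis lines. A row was a member if its symbol was Rpl or Rps with a number and at most 1 further letter and digits, or was Rpsa, Rplp0, Rplp1 or Rplp2, and pseudogene symbols and the S6 kinase genes (Rps6k) were left out. This gave 80 of the 16383 rows, 50 for the large and 30 for the small subunit, of which 7 are paralogs (Rpl3l, Rpl7l1, Rpl10l, Rpl22l1, Rpl39l, Rps27l and Rps4y2). Rps12, Rps13, Rps27 and Rpl41 were not analysed here. The study depleted Gstt1, a glutathione S-transferase, in 6 lines grown from spontaneous metastases, 2 from lung (42-3 and 6-2) and 4 from liver (42-2, G45-2, 6-3 and 13-2). Libraries came from cells infected with lentivirus for Gstt1 shRNA 1 (6 libraries), Gstt1 shRNA 2 (4 libraries) or a non-targeting (NT) hairpin (8 libraries), all kept in puromycin for 48 h, and collected after a passage. By their genotype labels the lines carry KrasL/+, a floxed p53 allele (written p53F/+ or Tp53F/+) and p48-Cre or p48+, p48 being the Ptf1a locus that is active in pancreatic progenitors, and all but 13-2 also carry SIRT6F/F. NT control cells share these alleles, the lentiviral infection and the puromycin. Each line is 1 culture of tumor cells, and the labels do not say whether libraries of a line come from separate cultures, so p-values measure only the spread between these libraries and lines.

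Ribosomes consist of a large subunit, which joins amino acids, and a small subunit, which reads the message. Each subunit protein is made in step with the others, since unpaired copies are degraded, and their messages begin with a run of pyrimidines (C and T), the TOP element, through which mTORC1 and LARP1 set their translation. In tumor cells, Myc and growth signals raise ribosome production, and unassembled Rpl5 and Rpl11 can bind Mdm2 and stabilise p53. Mammalian genomes hold many processed pseudogenes of these genes, so short reads from them can match several places.

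The libraries held 8411436 to 25552912 reads, and 3 reads stood for 0.117 to 0.357 CPM. Gstt1 was lower than in the control of the same culture set in 10 of 10 knockdown libraries. It was at 0.0687 to 0.373 CPM, 1 to 9 reads, in 7 of them, at 5.15 CPM under shRNA 2 in G45-2, and at 54.5% and 75.4% of the control under shRNA 1 in G45-2 and in 6-3. The controls of line 42-2 held little Gstt1, 2.67 CPM in the first and 0.616 CPM in the second set, against 24.3 to 52.5 CPM in the controls of the other lines. Knockdown libraries were set against the NT control of their own line, a culture set, and lines 42-3 and 42-2 have a first and a second set. In 6-3 and in 13-2 the control and the knockdown libraries carry different library codes in their labels. Code and knockdown cannot be told apart there. In 6 of the 8 sets knockdown and control libraries differed in transcripts used to tell lines apart, called identity transcripts here. These (Xist, Cdkn2a, Cdkn2b and, from the Y chromosome, Uty, Kdm5d, Ddx3y and Eif2s3y) differed at least 5-fold, with the higher value at 10 CPM or more, for 7 of 7 transcripts in the first 42-3 set, 6 of 7 in the second 42-3 set and in 6-2, 2 of 7 in the first 42-2 set and in 13-2, and 1 of 7 in G45-2. By this rule they differed for 0 of 7 in 6-3 and in the second 42-2 set, although Eif2s3y was at 0.0687 CPM under shRNA 2 and 4.08 CPM in the control of the second 42-2 set, under the limit. Eif2s3y, for example, was at 0.0512 CPM in the 6-2 library labelled shRNA 1, against 165 CPM in the 6-2 library labelled NT control. Markers of other cells differed too, as the collagen gene Col3a1 was at 3625 CPM in the library labelled shRNA 1 of the first 42-3 set, against 0.0736 CPM in its control. Their part in the results below was not tested, and the knockdown median, the summed ratio and the fitted changes of Rpl26, Rpl34, Rps28, Rps3a, Rps4y2 and Rpl29 are also given without them.

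The level of a ribosomal protein gene in these data ran with how much of its coding sequence is found in no other gene. The coding sequence of each member in GENCODE M21 was cut into 50-mers, and a 50-mer was called unique if no other annotated gene or pseudogene transcript held it. Among 72 canonical members with a matched coding sequence (paralogs left out), the 10 with at least 50% unique 50-mers (Rpl4, Rpl8, Rpl22, Rpl32, Rps3, Rps9, Rps15 and Rps21 among them) had a median level of 555 CPM per kb of coding length and a range of 204 to 771. The 23 members with 10% to 50% had a median of 170 CPM per kb, and the 39 members under 10% had a median of 14.0 CPM per kb and a range of 0.228 to 456. Spearman's rho between level and unique share was 0.81 over these 72 genes (0.75 with 100-mers), a description across genes that share the same libraries.

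Rpl4, 79.7% unique, and Rps3, 91.9% unique, lay at the top of the order, with medians of 771 and 748 CPM per kb over the 18 libraries. Rpl3, a core protein near the peptidyl transferase center, had 4.31% unique 50-mers, 26 other genes sharing others of its 50-mers, and a median of 0.228 CPM per kb. Rps6, the small subunit protein phosphorylated by S6 kinases, had no unique 50-mer, 14 genes sharing its sequence and 2.98 CPM per kb. The glycolytic gene Gapdh stood likewise at 9.15 CPM with 5.84% unique 50-mers and 212 pseudogenes sharing its sequence, while Actb, 80.3% unique, stood at 3697 CPM. Rpl13a went against the order, at 456 CPM per kb with 2.50% unique 50-mers. The sources used here do not say how reads that match several places were counted, and values of members with little unique sequence are uncertain as expression levels. Of the 80 members, 26 had a median under 10 CPM and 15 a median of at least 100 CPM. The filter on low values (1 CPM in at least 4 libraries) passed 74 members, 46 large and 28 small, and left out Rpl3l, Rpl10l, Rpl39l, Rpl23a, Rps23 and Rps29. The row named Rpl24 carries an Ensembl identifier that GENCODE M21 gives to the neighboring gene Zbtb11, so its identity is uncertain.

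**Figure D1:**
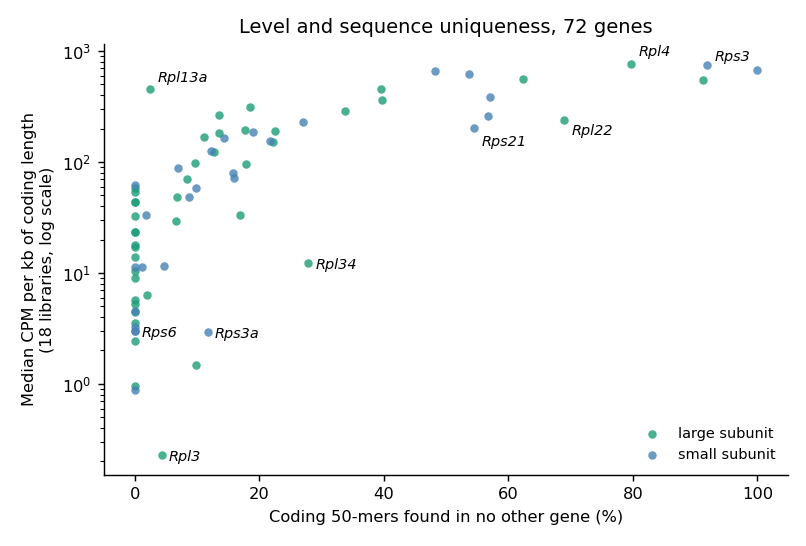
Level of 72 canonical ribosomal protein genes (median CPM per kb of coding length over 18 libraries, log scale) against the percentage of their coding 50-mers found in no other annotated gene. Points are genes, green for the large and blue for the small subunit. Genes with at least 50% unique sequence lie between 204 and 771 CPM per kb, while those under 10% spread down to 0.228.

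The sequences around the annotated start sites were searched for the C and T run of TOP messages. RefSeq promoters (GRCm38.p6, a later build than the mm9 of the deposited values) matched 58 members, 52 of them canonical. A motif of CTTT on the gene's strand within 5 bases of the start was found for 12 of 52 canonical members (23.1%), against 5.11% of all 11685 genes of the table with a promoter, and a run of at least 6 letters that are only C or T, overlapping the same bases, for 26 of 52 (50%), against 20.6% of all. A CTTT at the start can lie within such a run. A match is a description of the sequence. The 50-base windows below give 30 bases before the start and 20 from the start on, 5′ to 3′, with the C and T run at the start in capitals. The first 4 are examples of members with both a CTTT at the start and a run of at least 6 letters, Rpl7a and Rpl12 of the large and Rps6 and Rps9 of the small subunit. The last 3 are Rpl34, Rpl26 and Rps3a, the members with the most positive, the most negative and the next most positive knockdown difference.
Rpl7a chr2:26910777-26910826 plus strand: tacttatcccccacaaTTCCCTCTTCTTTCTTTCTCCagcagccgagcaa
Rpl12 chr2:32961682-32961731 plus strand: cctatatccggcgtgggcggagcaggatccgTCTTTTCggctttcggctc
Rps6 chr4:86857348-86857397 minus strand: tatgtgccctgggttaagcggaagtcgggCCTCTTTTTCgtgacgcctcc
Rps9 chr7:3704011-3704060 plus strand: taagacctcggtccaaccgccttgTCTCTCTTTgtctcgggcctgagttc
Rpl34 chr3:130730379-130730428 minus strand: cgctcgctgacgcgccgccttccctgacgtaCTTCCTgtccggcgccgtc
Rpl26 chr11:68901536-68901585 plus strand: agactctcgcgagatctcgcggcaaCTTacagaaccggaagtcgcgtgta
Rps3a chr3:86142649-86142698 minus strand: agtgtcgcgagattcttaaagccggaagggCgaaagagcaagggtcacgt
The runs in Rpl7a, Rpl12, Rps6 and Rps9 were 21, 7, 10 and 9 letters long, and those of Rpl34, Rpl26 and Rps3a were 6, 3 and 1.

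Together the 80 members took 0.650% ± 0.236 of the reads in knockdown libraries (SD, n = 10) and 0.712% ± 0.122 in NT controls (SD, n = 8), and the ranges overlapped (0.418% to 1.16% in knockdown, 0.554% to 0.870% in controls). In 4 of the 8 sets most members lay on 1 side of the control, higher in one set and lower in the others. In the first 42-2 set, whose control had little Gstt1, they took 1.16% of reads under shRNA 1 and 0.554% in the NT control. In 6-2 they took 0.424% under shRNA 1 and 0.870% in the control. In the first 42-3 set they took 0.418% under shRNA 1 and 0.625% in the control. Knockdown was thus higher than control in the first of these sets and lower in the others, and all 3 sets carry the library code CFa8 in their labels. In bulk RNA, fewer cells of a type and less RNA per cell cannot be told apart.

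In G45-2 the members took 0.453% under shRNA 1, 0.485% under shRNA 2 and 0.709% in the control. In 6-3 they took 0.599% under shRNA 1, 0.787% under shRNA 2 and 0.790% in the control, so the shRNA 1 library, where Gstt1 stayed at 75.4% of the control, lay apart. The remaining 3 sets differed less: 0.659% under shRNA 2 and 0.727% in the control of the second 42-3 set, 0.866% under shRNA 2 and 0.853% in the control of the second 42-2 set, and 0.643% under shRNA 1 and 0.571% in the control of 13-2. Over the 8 sets, the log2 ratio of summed CPM to the own control averaged -0.16 ± 0.63 (SD) and was below 0 in 5 of 8 sets, so the mean was smaller than the spread between sets. Without the 6 sets whose libraries differed in identity or ribosomal transcripts it was -0.09. Within the 3 sets of code CFa8 it averaged -0.18 ± 1.11, and in the 5 sets of other codes -0.15 ± 0.29. The 10 members with at least 50% unique sequence alone gave the same picture, with a log2 ratio of 1.06 in the first 42-2 set, -1.01 in 6-2, -0.61 in the first 42-3 set and in G45-2, and a mean of -0.18 ± 0.63 over the 8 sets.

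**Figure D2:**
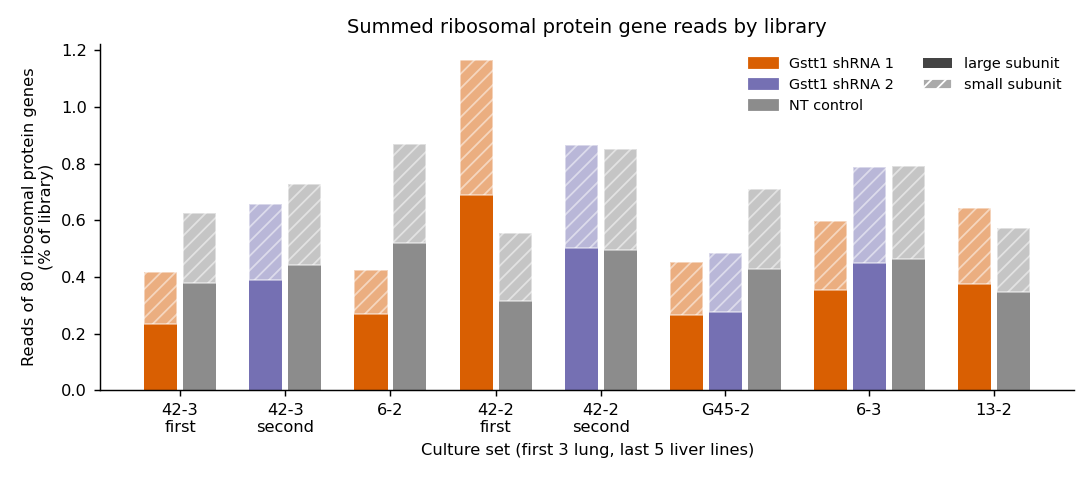
Reads of the 80 ribosomal protein genes as a percentage of each library, by culture set, with the knockdown libraries (orange, Gstt1 shRNA 1; violet, Gstt1 shRNA 2) left of the NT control (gray) of the same set. Solid parts are large subunit genes and hatched parts small subunit genes. The knockdown bar is higher than its control in the first 42-2 set (1.16% and 0.554%) and lower in 6-2 (0.424% and 0.870%).

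Gene by gene, 69 of 74 tested members were higher under shRNA 1 than in the NT control of the first 42-2 set, with a median log2 difference of 1.35, against a median of 0.05 over all 12931 tested genes. In 6-2, 65 of 74 were lower under shRNA 1, with a median of -0.89, against 0.03 over all genes. In G45-2, 67 of 74 were lower under shRNA 1 (median -0.72, against -0.13 over all genes) and 68 of 74 under shRNA 2 (median -0.62, against -0.10). In the first 42-3 set, 59 of 74 were lower (median -0.41, against -0.05). The 2 hairpins of 6-3 lay on different sides of their shared control, with medians of -0.20 under shRNA 1 (52 of 74 lower) and 0.22 under shRNA 2 (27 lower). In the second 42-2 set, the second 42-3 set and 13-2 the medians were -0.06, 0.08 and 0.02. The members were spread less than genes at large in every library: the interquartile range of their differences was below that of all tested genes in 10 of 10 knockdown libraries, with a median of 0.72 for members and 1.03 for all genes.

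Values of the subunits went together. The log2 ratio of summed CPM was -0.18 ± 0.65 for large and -0.13 ± 0.63 for small subunit members over the 8 sets (SD), and their difference, large minus small, was -0.05 ± 0.17 and ran between -0.30 in the first 42-3 set and 0.22 in 6-2. The medians of fitted changes, which weight each gene alike, differed by 0.07 the other way. Summed large subunit reads were 1.42 ± 0.12 times the small subunit reads in knockdown libraries (SD, n = 10) and 1.48 ± 0.087 times in NT controls (SD, n = 8), overlapping groups. The lowest ratio was that of the shRNA 1 library of the first 42-3 set (1.26) and the highest that of 6-2 (1.72), both outside the controls' 1.33 to 1.57.

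**Figure D3:**
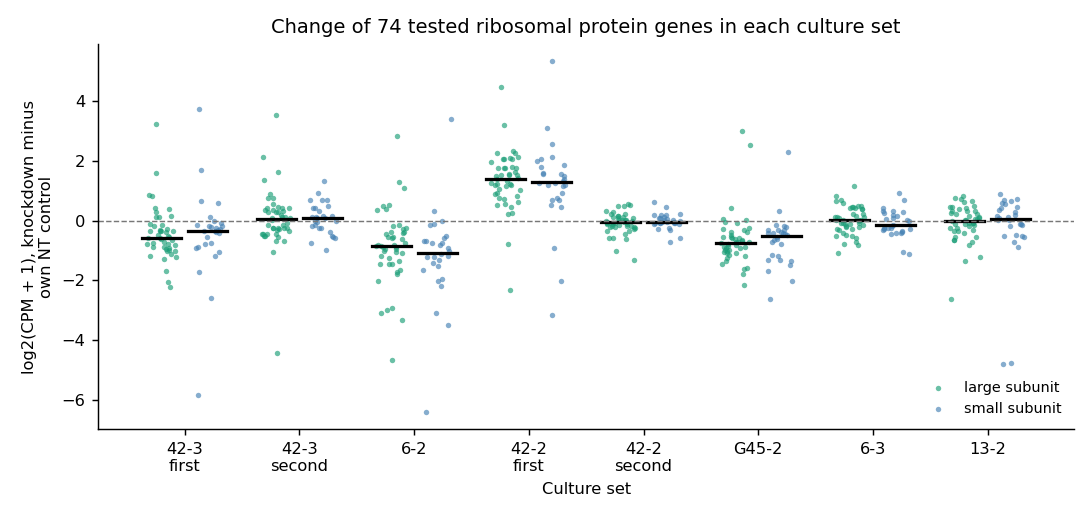
Difference in log2(CPM + 1) between knockdown and the NT control of the same culture set, for 46 large subunit (green) and 28 small subunit (blue) genes. Each point is a gene (mean of both hairpins where a set has both) and black bars are medians. Both subunits lie together in each set, high in the first 42-2 set (medians 1.39 and 1.30) and low in 6-2 (-0.85 and -1.07).

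Fitted over all 18 libraries with limma, the culture set as a block, 0 of 74 members passed an adjusted p of 0.05 for Gstt1 knockdown against NT control. Over all genes 5 of 12931 passed (0.0387%). At an unadjusted p under 0.05 there were 2 members, Rpl26 and Rpl34, and 2216 genes in all (17.1%). The quasi-likelihood test of edgeR on the recovered read counts called 0 members too, with 2 at an unadjusted p under 0.05. The fitted log2 change was below 0 for 54 of 74 members, against 53.0% of all genes, with a median of -0.12 for the members and -0.03 for all. It was below 0 for 32 of 46 large subunit members (median -0.10) and 22 of 28 small subunit members (median -0.18). The share of lower members rests on a few sets: without G45-2 the median was 0.0058, and without the first 42-2 set -0.29. Set by set, 16 of 74 members were lower in at least 6 of 8 sets, against 25.0% of all genes, and 2 were higher in at least 6, against 18.9%.

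On the mean of a set's hairpins, Rpl26 was the member lower in all 8 sets, 1 of 74, against 2.43% of all genes. It lies by the exit of the peptide tunnel and also binds p53 mRNA to raise its translation. Its CPM had a lowest value of 3.63, a median of 37.2 and a highest of 95.3 in the 10 knockdown libraries, against 51.7, 78.8 and 115 in the 8 NT controls. The groups overlapped, and the low end came from the shRNA 1 libraries of 6-2 (3.63 CPM) and the first 42-2 set (9.48 CPM), sets in which most other members lay low in one and high in the other. Its log2 change was -1.26 ± 0.39 (SE), lower in 8 of 8 sets on the mean of a set's hairpins, with a limma adjusted p of 0.161. Per set it ran between -0.21 in 6-3 and in the second 42-2 set, the 2 sets without identity differences by the rule, and -4.64 in 6-2, and the fitted change was -0.44 ± 0.32 when the 6 sets whose libraries differed were left out.

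Rpl34, a large subunit protein, went the other way. It had a lowest value of 1.03, a median of 28.8 and a highest of 107 CPM in knockdown libraries, against 2.36, 3.84 and 16.1 CPM in NT controls. It was above 25 CPM in 6 knockdown libraries and 0 controls, but at 1.03 to 3.75 CPM in the other 4 knockdown libraries, below the control median. The log2 change was 1.64 ± 0.60 (SE), higher in 5 of 8 sets, with a limma adjusted p of 0.204, and it was -0.53 when the 6 sets whose libraries differed were left out.

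Among the other large subunit members with a mean of at least 5 CPM, those with the most negative differences included Rpl35a (-0.61 ± 0.33, SE), Rpl22 (-0.56 ± 0.33) and Rpl23 (-0.38 ± 0.27). Their limma adjusted p were between 0.367 and 0.494. Rpl22, a protein dispensable for translation in most mouse cells and lost in some human T-cell leukemias, had a lowest value of 33.0, a median of 68.9 and a highest of 199 CPM in knockdown libraries, against 69.4, 113 and 167 CPM in controls, the groups overlapping. The most positive after Rpl34 were Rpl10 (0.51 ± 0.35), which lines the P-site, Rpl30 (0.47 ± 0.41), the row named Rpl24 (0.42 ± 0.20) and Rpl28 (0.25 ± 0.33), with adjusted p between 0.319 and 0.738.

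The Rpl24 row was the single member on the other side of 0 from the member median in at least 6 of 8 sets. It was at 30.1, 47.3 and 75.2 CPM (lowest, median and highest) in knockdown libraries, against 21.5, 36.6 and 53.7 CPM in controls, higher in 7 of 8 sets. The groups overlapped. As its identifier is that of Zbtb11 in GENCODE M21, this may not be a ribosomal protein gene.

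In the small subunit the most negative were Rps28 (-0.85 ± 0.42, SE), Rps2 (-0.58 ± 0.50), Rps18 (-0.52 ± 0.36), Rps25 (-0.33 ± 0.31) and Rps7 (-0.32 ± 0.36), with adjusted p between 0.320 and 0.683. Rps28 sits where the message leaves the small subunit. It was at 0.921, 10.6 and 21.7 CPM in knockdown libraries and at 7.95, 18.8 and 21.1 CPM in controls (lowest, median, highest), overlapping, and the 4 knockdown libraries under 5 CPM were those of 6-2, the first 42-2 set and both of G45-2. Without the 6 sets whose libraries differed its fitted change was -0.013 ± 0.43 (SE), and without 6-2 alone -0.57 ± 0.36. The most positive were Rps3a (0.75 ± 0.85), Rps15a (0.04 ± 0.26), Rps3 (0.01 ± 0.22), Rpsa (-0.02 ± 0.32) and Rps19 (-0.05 ± 0.28), with adjusted p between 0.694 and 0.982, so beyond Rps3a no small subunit member with a mean of at least 5 CPM lay far above 0. Rps3, a protein of the message entry channel, had 401, 509 and 1270 CPM in knockdown libraries and 405, 545 and 751 CPM in controls, and the shRNA 1 library of the first 42-2 set was the one above the highest control. Rps19, mutated in human Diamond-Blackfan anemia, was at 33.4, 85.6 and 177 CPM in knockdown libraries and 55.0, 81.7 and 113 CPM in controls.

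**Figure D4:**
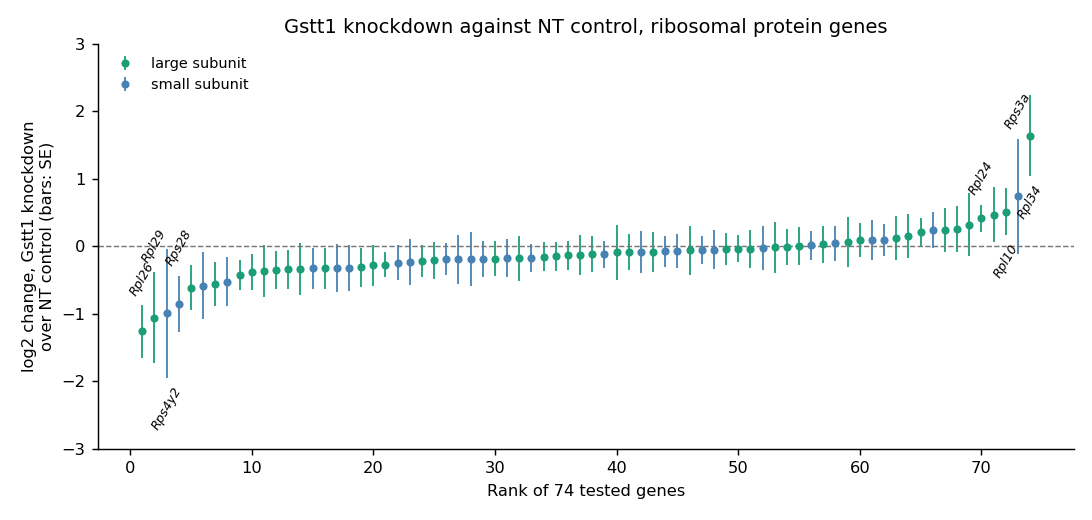
Fitted log2 change of 74 ribosomal protein genes, Gstt1 knockdown over NT control, ranked from low to high. Points are limma estimates, bars are SE, green is the large and blue the small subunit. The median is -0.12, with Rpl26 (-1.26) and Rpl34 (1.64) at the ends, and none passed an adjusted p of 0.05.

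Rpl5 and Rpl11, the Mdm2 binding pair, had log2 changes of 0.26 ± 0.34 and -0.02 ± 0.37 (SE), with limma adjusted p of 0.740 and 0.988. Rpl5 was at 2.23, 4.10 and 12.5 CPM in knockdown libraries and at 1.64, 3.72 and 9.97 CPM in controls, so the groups overlapped at a low level. Rps6 had 0.10 ± 0.23 at a median of 2.50 CPM in knockdown libraries and 1.95 CPM in controls. The stalk proteins that draw in translation factors, Rplp0, Rplp1 and Rplp2, had -0.15 ± 0.22, -0.08 ± 0.29 and -0.18 ± 0.26. Rpsa, also known as the laminin receptor, was at a median of 8.30 CPM in knockdown libraries and 11.0 CPM in controls.

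The 8 members of largest range were Rpl34, Rps3a, Rps4y2, Rpl29, Rpl3, Rpl26, Rps2 and Rps28. They were picked after their values were seen, as those with a highest value of at least 10 CPM and at least 20 times the lowest, counting a lowest value under 3 reads of the shallowest library as 0.357 CPM. By the same rule, 6 of the 61 members with a mean of at least 5 CPM (9.84%) and 1689 of 10567 genes with such a mean (16.0%) had these ranges. The median range was 5.40-fold for those 61 members and 4.16-fold for those genes. Rpl29 and Rpl3 had a lower mean.

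Rps3a, a small subunit protein bound by eIF3, was close to an on and off pattern. It was at 59.7 to 75.9 CPM in the 3 libraries of 6-3, at 66.1 CPM under shRNA 1 in the first 42-2 set, against 0.692 CPM in its control, and at 0.918 CPM under shRNA 1 in 13-2, against 50.5 CPM in its control. In the first 42-3 set it was at 18.9 CPM under shRNA 1 and 0.516 CPM in the control, and in 6-2 at 18.8 CPM and 0.872 CPM. The remaining 7 libraries, those of the second 42-3, second 42-2 and G45-2 sets, were between 1.24 and 2.62 CPM. Its fitted change (0.75 ± 0.85, SE) turned to -0.13 without the 5 sets that differed in at least 2 identity transcripts.

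Rps4y2, named Rps4l in GENCODE M21, was at 0 CPM in the 3 libraries of 6-3. It was at 2.35 CPM under shRNA 1 and 187 CPM in the control of the first 42-3 set, at 0.0512 and 86.7 CPM in 6-2, and at 3.25 and 116 CPM in 13-2. The direction was the other in G45-2, with 99.0 CPM under shRNA 1, 96.9 CPM under shRNA 2 and 19.4 CPM in the control, and in the first 42-2 set, with 19.0 CPM under shRNA 1 and 2.37 CPM in the control. The second 42-2 set had 109 CPM under shRNA 2 and 94.6 CPM in the control, and the second 42-3 set 0.713 CPM under shRNA 2 and 0.0674 CPM in the control. Its parent Rps4x spanned 27.7 to 102 CPM and did not follow: in the first 42-3 set it was at 52.2 CPM under shRNA 1 and 34.8 CPM in the control.

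In 6-2, the first 42-2 set and G45-2, Rpl34 was higher and Rpl26, Rps2 and Rps28 were lower in knockdown libraries than in the control. The shRNA 1 library of 6-2 had 39.5 CPM of Rpl34, 3.63 of Rpl26, 7.37 of Rps2 and 0.921 of Rps28, and its control 4.70, 115, 32.6 and 20.7 CPM. The shRNA 1 library of the first 42-2 set had 107, 9.48, 16.9 and 4.40 CPM, and its control 3.90, 51.7, 159 and 21.1 CPM. In G45-2 the values under shRNA 1 were 33.5, 22.1, 25.8 and 3.24 CPM, and in the control 3.23, 76.8, 174 and 18.8 CPM. In the second 42-3 set Rpl34 was at 37.8 CPM under shRNA 2 and 2.36 CPM in the control, while Rps2 had 51.8 and 20.1 CPM and Rps28 13.3 and 7.95 CPM. In 13-2 Rpl34 was high in both, 25.8 CPM under shRNA 1 and 16.1 CPM in the control, with 40.8 and 54.2 CPM of Rpl26, 61.9 and 101 CPM of Rps2, and 12.6 and 18.8 CPM of Rps28. Differences from the control were counted at 5-fold or more with the higher value at 10 CPM or more, the rule of the identity transcripts. They were found for 6 of these 8 members in 6-2, 5 in the first 42-2 set, 4 in G45-2 and 3 in the first 42-3 set. The count was 2 in the second 42-3 set and in 13-2, and 0 in 6-3 and in the second 42-2 set. In these same 2 sets 0 of 7 identity transcripts differed. The limit matters, as Rpl29 was at 0.275 CPM under shRNA 2 and 2.16 CPM in the control of the second 42-2 set. Whether the cells, their genome or the assignment of shared reads set these values was not tested. The 8 members were picked for their range over these same libraries, so the counts by set do not test a link to the identity transcripts. The share of all genes with such differences was not counted. For Rps4y2 no unique share was obtained, as it had no coding sequence to cut. The others of the 8 had under 30% unique 50-mers, Rpl34 having the most with 27.8%.

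**Figure D5:**
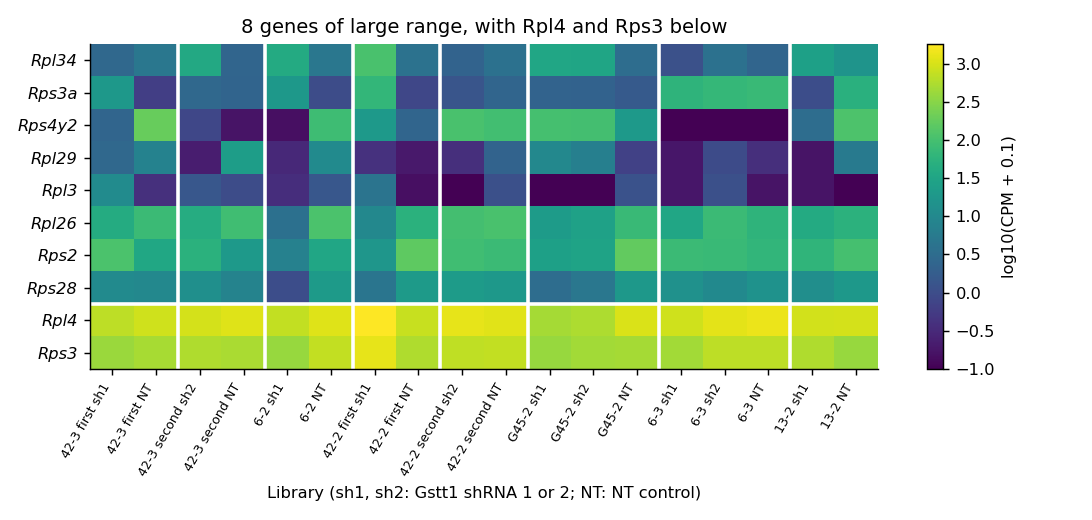
Level of the 8 ribosomal protein genes of largest range, and of Rpl4 and Rps3 below the white line, in each of 18 libraries, as log10(CPM + 0.1). White verticals part the culture sets, with knockdown libraries (sh1, sh2) left of the NT control. Rpl34 is bright and Rpl26, Rps2 and Rps28 dark in the shRNA 1 libraries of 6-2 and the first 42-2 set and in both knockdowns of G45-2, while the libraries of 6-3 look alike.

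Among the paralogs, Rpl7l1, which acts in large subunit assembly, was the highest, with a median of 167 CPM and a range of 96.6 to 262 in knockdown libraries, against 147 CPM and 108 to 220 in controls. Its log2 change was 0.21 ± 0.21 (SE, limma adjusted p = 0.639), and its parent Rpl7 had -0.13 ± 0.21 (0.791). In 6-2 the paralog and the parent lay on different sides, with Rpl7l1 at 262 CPM under shRNA 1 and 108 CPM in the control, and Rpl7 at 105 CPM and 190 CPM. Rps27l, a p53 target, was at a median of 87.4 CPM in knockdown libraries and 91.3 CPM in controls (0.10 ± 0.29, adjusted p = 0.898). It went with the other members, with 140 CPM under shRNA 1 and 40.3 CPM in the control of the first 42-2 set. Rpl22l1, which Rpl22 represses in mouse cells, was at 2.61, 15.2 and 23.8 CPM in knockdown libraries and 9.69, 16.5 and 29.98 CPM in controls (-0.36 ± 0.38, adjusted p = 0.663). Rpl22 and Rpl22l1 were both lower in 6-2, and in G45-2 Rpl22 was at 33.0 CPM under shRNA 1, 41.0 under shRNA 2 and 167 CPM in the control, with Rpl22l1 at 19.3, 14.8 and 12.3 CPM. Rpl3l, a striated muscle gene, and Rpl10l and Rpl39l, testis genes, stayed under 0.6 CPM in all 18 libraries.

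Taken singly, neither hairpin gave a called member or gene against NT control by limma (0 of 74 and 0%, 0 of 12931, for each), nor did edgeR. For shRNA 1, 61 of 74 members had a log2 change below 0, against 51.0% of all genes, with a median of -0.14 (-0.01 over all genes). At an unadjusted p under 0.05 there were 4 members, against 16.1% of all genes. These were Rpl26 (-1.80 ± 0.46, SE), Rps28 (-1.22 ± 0.48), Rpl35a (-0.97 ± 0.38) and Rpl34 (1.56 ± 0.70). For shRNA 2, 47 of 74 were below 0, against 55.1% of all genes, with a median of -0.07 (-0.05 over all genes). Of the members 0 had an unadjusted p under 0.05, against 6.45% of all genes. The largest differences under shRNA 2 were those of Rpl34 (1.73 ± 0.83), Rpl10 (0.58 ± 0.48) and Rpl5 (0.45 ± 0.47) above 0 and of Rpl29 (-1.07 ± 0.92), Rpl26 (-0.72 ± 0.54) and Rpl19 (-0.55 ± 0.39) below. Both contrasts share the controls of G45-2 and 6-3. Tested against each other, shRNA 2 and shRNA 1 differed for 0 members and 0 genes (0%), with 0 members and 0.495% of all genes at an unadjusted p under 0.05. The widest gaps were Rps4y2 (1.89 ± 1.51), Rpl26 (1.08 ± 0.62) and Rps28 (0.74 ± 0.66) above 0 and Rps3a (-0.89 ± 1.34), Rpl3 (-0.43 ± 0.74) and Rpl19 (-0.41 ± 0.45) below. Most sets hold a single hairpin, so hairpin and set cannot be told apart outside G45-2 and 6-3.

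The knockdown difference was lower in lung than in liver lines for most members, without a call. The interaction was below 0 for 58 of 74 members, against 49.2% of all genes, with a median of -0.53 for members and 0.02 for all. Most other gene lists, set out below, went the same way. It was below 0 for 73 of 74 mitochondrial ribosomal protein genes (median -0.83) and 36 of 39 ribosome biogenesis genes (-0.83). The same held for 16 of 20 other genes with TOP messages (-0.57) and 15 of 15 proliferation genes (-1.45). It was above 0 for the 5 tested fibroblast markers. By limma 0 members passed the adjusted threshold, against 24 of 12931 genes (0.186%), and 8 members had an unadjusted p under 0.05, all below 0, against 17.7% of genes. They included Rpl8 (-1.43 ± 0.40, SE, limma adjusted p = 0.128), Rplp0, Rplp2, Rpl29, Rps14, Rps21 and Rps4y2. Rpl8, whose coding 50-mers are 91.3% unique, was at 234, 283 and 445 CPM in the 3 lung knockdown libraries, against 753, 972 and 643 CPM in their controls. In liver lines it was at 737 CPM under shRNA 1 and 386 CPM in the control of the first 42-2 set, and within 289 to 537 CPM in the other liver knockdowns, against 315 to 572 CPM in their controls. Rpl8 was thus lower in 3 of 3 lung knockdown libraries. It was also lower in 4 of 7 liver ones, with 289 and 322 CPM in G45-2 (399 CPM in the control), 537 CPM in the second 42-2 set (572 CPM in the control) and 394 CPM under shRNA 1 in 6-3 (445 CPM in the control). The largest positive interactions were those of Rps3a (2.35 ± 1.70), Rps2 (1.59 ± 0.96) and Rpl10 (0.97 ± 0.68), and Rps4y2 (-3.88 ± 1.69), Rpl29 (-2.97 ± 1.12) and Rpl37a (-1.52 ± 0.69) were the most negative. The median of the interaction was -0.25 without the first 42-2 set and -0.26 without 6-2. All 3 lung sets hold libraries that differed in identity transcripts, so the interaction could not be fitted without them, and site and identity cannot be told apart.

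Lung and liver NT controls, compared by limma on means of 6 lines, differed for 0 members, against 4 of 12931 genes (0.0309%). At an unadjusted p under 0.05 there were 4 members, against 13.1% of all genes. The edgeR test took the 8 control libraries singly, so repeat libraries of a line counted as replicates. It gave 8 members at an unadjusted p under 0.05, against 2140 of 12931 genes. Summed members took 0.741% ± 0.123 of reads in lung controls (SD, n = 3) and 0.695% ± 0.132 in liver controls (SD, n = 5), overlapping. Rpl8 was at 790 ± 168 CPM in lung controls (643 to 972) and 424 ± 95.3 CPM in liver controls (315 to 572), with a log2 difference of 1.03 ± 0.28 (SE, limma adjusted p = 0.241). Rpl29 was at 7.59 to 23.0 CPM in lung controls and 0.0988 to 5.64 CPM in liver controls (2.56 ± 0.68, 0.239). Rps2 was at 20.1 to 34.2 CPM in lung controls and 63.6 to 174 CPM in liver controls (-1.82 ± 0.39, 0.172). Without line 6-3 it passed the threshold (-2.06 ± 0.31, limma adjusted p = 0.0362), in a fit that called 167 of 12931 genes. Rps18 had 29.6 to 58.2 CPM in lung and 62.0 to 88.9 CPM in liver controls (-0.75 ± 0.31, 0.378). Rps3a (-2.61 ± 1.54) and Rps4y2 (1.29 ± 1.71) had wider gaps with wider errors.

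Gnb2l1, also called Rack1, went with the ribosomal protein genes in several sets. Of the ribosomal genes outside the symbol rule, this small subunit scaffold was at 1831 CPM under shRNA 1 and 400 CPM in the control of the first 42-2 set, at 499 and 1506 CPM in 6-2, and at 477 under shRNA 1, 485 under shRNA 2 and 652 CPM in the control of G45-2. Its log2 change was -0.15 ± 0.33 (SE), and Fau and Rpl36al were also below 0. Over all genes 53.0% had a log2 change below 0 and 17.1% an unadjusted p under 0.05. Of 20 translation factors and other genes with TOP messages, 15 were lower, with a median of -0.18, and 2 had an unadjusted p under 0.05. The smallest p was that of Eif3h (-0.68 ± 0.20, limma adjusted p = 0.143), then of Eif3k (-0.39 ± 0.17). Of 74 tested mitochondrial ribosomal protein genes, 66 were lower, with a median of -0.28, and 15 had an unadjusted p under 0.05. The smallest p were those of Mrpl38 (-0.73 ± 0.23, limma adjusted p = 0.166) and Mrpl16 (-0.58 ± 0.19). None of these lists had a gene past the threshold, and neither did those that follow, against the 0.0387% of all genes.

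Ribosome biogenesis genes had a median of 0.12, with 24 of 39 higher and 15 lower, against 53.0% of all genes lower. An unadjusted p under 0.05 was found for 1 of them. The smallest p were those of Utp20 (1.10 ± 0.39, SE, limma adjusted p = 0.194) and Heatr1 (0.67 ± 0.33), both factors of rRNA processing. Proliferation genes were higher for 15 of 15, with a median of 0.93 and 11 at an unadjusted p under 0.05, against 17.1% of all genes. Among these 11 were the cycling marker Mki67 (1.60 ± 0.28, limma adjusted p = 0.0692) and the replicative helicase subunit Mcm4 (0.95 ± 0.26). Of the regulators of ribosomal protein genes 10 of 15 were lower, with a median of -0.08, and 5 had an unadjusted p under 0.05. The smallest p were those of Gabpa, which was higher (0.50 ± 0.17, limma adjusted p = 0.176), and Maf1, which was lower (-0.72 ± 0.27). Myc, for reference, was at 117 to 812 CPM in knockdown libraries and 445 to 1512 CPM in controls. Epithelial markers (5 of 5 tested) had log2 changes below 0, with a summed range of 256 to 7640 CPM in knockdown libraries and 380 to 14473 CPM in controls. Fibroblast markers (5 of 7 tested) summed to 4.08 to 6452 CPM in knockdown libraries and 5.79 to 2917 CPM in controls. Macrophage markers stayed at 1.57 to 30.1 CPM in knockdown libraries and 4.35 to 16.6 CPM in controls, endothelial markers at 0 to 11.4 CPM and 0.693 to 1.74 CPM, and acinar markers were not analysed here.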

How the data were processed

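Per the labels' protocols, TruSeq libraries were made from total RNA. The authors deposited 1 table of CPM values, scaled to the reads of each library, and mm9 is the build named by the submitters' processing notes. The sources used here name no aligner, counter or annotation. CPM values were whole multiples of 1 read in 100% of cases (tolerance 0.01 reads), which gave the library totals. Groups, lines and hairpins come from the labels. Lines 42-3 and 42-2 were divided into sets by library code, and the block of the fit is the culture set. In 6-3 and 13-2 the NT control has code CFa11 and the knockdown libraries have code CFa12, so code and knockdown cannot be told apart there. Without both lines limma called 0 of 12931 genes for knockdown against NT control, against 5 with all lines.

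The 12931 genes at 1 CPM in at least 4 libraries were fitted with limma 3.58.1 in R 4.3.3 with a trend on log2(CPM + 1), two-sided, calling genes at a Benjamini-Hochberg adjusted p under 0.05; the scale understates changes of low genes. The fit was also run on simulated counts in which control and knockdown of a set shared the same set effects. In most sets here the libraries differed in identity transcripts, so that run does not measure how the fit does on these data. Whole reads were recovered, so edgeR 4.0.16 was run on those counts. As a check of pairing, which comes from the line named in the labels, deviations of knockdown libraries and their own controls from group means correlated at -0.36 to 0.70 (median 0.02, 4 of 10 above 0.1).

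Members, gene lists and tests were chosen with earlier results of these data known. Named members are the paralogs with their parents, the 5 largest differences of each sign in each subunit for members with a mean of 5 CPM, members against the median in at least 6 sets, 3 of each sign in other contrasts, and Rpl5, Rpl11, Rps6, Rpsa and the stalk genes. Of other lists the 2 genes of smallest p are named. Figures and sums were made with Python 3.11.15, pandas 2.3.3 and matplotlib 3.10.9. Sequences are from RefSeq (GRCm38.p6) and GENCODE M21. Some genes are not reported here.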

Additional observations from a re-analysis of the deposited data

Results flagged for a closer look

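Within each group of libraries, a value was listed where its gap to the nearest other library was large for the group's range (Dixon's 95% limit). This was done for 56 groups of values, chance lists about 1 group in 20, and 12 values came up. The shRNA 1 library of the first 42-2 set was high for summed members (11637 CPM), Rpl4 (1818 CPM), Rps3 (1270 CPM), Rpl8 (737 CPM), Rpl22 (199 CPM) and Rpl34 (107 CPM). These are values of 1 library and not independent of each other. The shRNA 1 library of G45-2 was high for Rpl29 (9.57 CPM) and Rps4y2 (99.0 CPM), and its shRNA 2 library for Rpl29 (6.77 CPM). In 6-3 the shRNA 2 library was high for Rps3a (68.9 CPM) and Rpl22l1 (23.8 CPM). The NT control of 13-2 was high for Rpl34 (16.1 CPM).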

How the results depend on the processing

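With lower or higher pseudocounts (0.5 and 2), no filter or one at 5 CPM, median-ratio or quantile scaling, no replicate block, the cell line as block, edgeR, and sets left out, 0 members were called where these were run, except that leaving out lines in turn gave 0 to 1 for lung against liver NT controls (1 without line 6-3, Rps2). That fit without line 6-3 called 167 of 12931 genes, against 4 with all lines. Lung against liver NT controls were not run with other blocks or without the 5 or 6 sets, the lung against liver knockdown difference not without the 5 or 6 sets, and shRNA 2 against shRNA 1 not without the 6. Without the replicate block the knockdown median of members was -0.10, with 0 members and 84 genes called. The block changed no call of a member. Leaving out sets in turn, this median ran between -0.29 (without the first 42-2 set) and 0.0058 (without G45-2), and the log2 ratio of summed CPM between -0.34 and -0.04. The median was -0.30 without the 5 sets of differing identity transcripts and -0.12 without 6 sets. Large minus small medians stayed between -0.02 and 0.12. Of single members, Rpl34 turned to -0.53, Rps3a to -0.41 and Rps4y2 to 0.074 without the 6 sets, and Rps3a to -0.13, Rps4y2 to 0.90 and Rpl29 to 0.65 without the 5; fewer samples enter those fits and the cause was not tested. Alternatives without the 6 sets, by unique sequence or without members of large range were chosen after seeing the data. Depth limits members near 1 CPM, where 3 reads are 0.117 to 0.357 CPM, and members with little unique sequence are limited by shared reads.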

Other observations

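The table also holds 57 rows with ribosomal pseudogene symbols, of which 16 reached 10 CPM in at least 1 library, and several differed widely between libraries. Rps6-ps1 was at 104 CPM under shRNA 1 and 0.198 CPM in the control of the first 42-2 set, and at 32.1 CPM under shRNA 1 and 0.402 CPM in the control of 6-2, and at 0.951 CPM or less in the other libraries, while Rps6 itself was at most 5.82 CPM. Rps13-ps1 was at 0.0512 and 1.27 CPM in the shRNA 1 libraries of 6-2 and the first 42-2 set, at 0.904 and 1.37 CPM under shRNA 1 and shRNA 2 in G45-2, and at 7.67 to 26.9 CPM in the other 14 libraries, the same 4 low libraries as for Rps28. Rps15a-ps8 was at 0.0512 to 0.993 CPM in those 4 libraries and at 7.02 to 17.8 CPM in the other 14.

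Some rows followed the library code. Rpl10-ps3 was at 3.31 CPM or more in the 6 libraries of code CFa8 and at 0 CPM in the 12 libraries of other codes, and Gm7536 was the only other row of the 16383 at 1 CPM or more in all 6 and under 3 reads of the shallowest library in all 12. No row, and no ribosomal protein gene, did so the other way round. The sources used here do not say how libraries of each code were processed, and the part of the code in these values was not tested.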
